A study of Mus musculus with 6 samples.

Results

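Retnla and 7 genes of alternatively activated and tissue-resident macrophages were followed in back skin of mice with the tight skin mutation (TSK) and of wild-type (WT) mice. The members were 9 genes picked by name from the 55291 genes of the deposited table, and all 9 were found. Reported here are 8 of them, Retnla, Retnlg, Chil3, Mgl2, Clec10a, Cd163, Mrc1 and Folr2. They were chosen by a list drawn up with the TSK and WT contrast already known, and Retnla heads it because it was high in TSK skin. The values of Retnla are therefore given as a description without a test, and the question put to the data is whether the other members were higher along with it.

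Total RNA was sequenced from 3 TSK and 3 WT mice, with 1 library per mouse. TSK mice carry an internal duplication in 1 copy of Fbn1, which encodes fibrillin 1, a protein of microfibrils, in every cell of the body, and WT mice carry none. Both groups were untreated C57BL/6 mice labelled as 6 to 8 weeks old, and the methods call the WT mice littermates. By label all 6 mice are female, while the methods describe males. Y-linked genes were read in all 6 libraries (Ddx3y at 56.7 to 72.8 CPM, counts scaled to 1000000 per library) and Xist stayed at 2.57 to 4.58 CPM. All 6 libraries thus read as male, as in the methods and unlike the label, and the sex did not differ between the groups.

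Library totals ran from 17561453 to 19219814 counts. Fbn1 stood at 272 ± 14.2 CPM in WT and 1943 ± 377 CPM in TSK (SD, n = 3), in the direction of the labels. Keratinocyte genes took 0.381% to 0.801% of the counts and genes of skeletal muscle 12.1% to 20.04%, so the whole thickness of the skin with its muscle layer was read. These are bulk samples, in which more cells of a type and more RNA per cell cannot be told apart.

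Alternative activation is the state macrophages enter when interleukin 4 or interleukin 13 bind their shared receptor and activate the transcription factor STAT6. In mice its textbook genes include Retnla, which encodes the secreted protein RELMα (FIZZ1), and Chil3, which encodes the chitinase-like protein Ym1. Mannose receptor, lectin and scavenger receptor genes are also induced, but resident macrophages beside the vessels of skin and fascia carry many of these receptors without such a stimulus. Retnla is made by macrophages and, in some tissues, by eosinophils, dendritic cells, epithelium and cells of adipose tissue.

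Retnla was low in WT skin and high in every TSK library. It lies on chromosome 16 at 48842551 to 48844461 (mm10, plus strand). WT 1, 2 and 3 held 10.6, 7.35 and 3.79 CPM, and TSK 1, 2 and 3 held 80.9, 69.0 and 133 CPM. The groups did not overlap, and the lowest TSK library stood 6.51-fold above the highest WT library. Group means were 7.24 ± 3.40 and 94.2 ± 33.8 CPM (SD, n = 3), a ratio of 13. On counts scaled by TMM, a scaling that limits the pull of a few abundant genes, the log2 fold change was 3.44 (SE 0.35). Against the WT mean the TSK libraries were 11.2-fold, 9.52-fold and 18.3-fold higher. Behind these values stood 69 to 186 counts in the WT libraries and 1326 to 2502 in those of TSK, and none of the 50-base stretches of the Retnla transcripts occurred in another annotated gene.

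The WT libraries were uneven for Retnla, with WT 1 at 2.79 times WT 3. Leaving out each library in turn gave log2 fold changes of 3.13 (without TSK 3) to 3.72 (without WT 1).

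**Figure D1:**
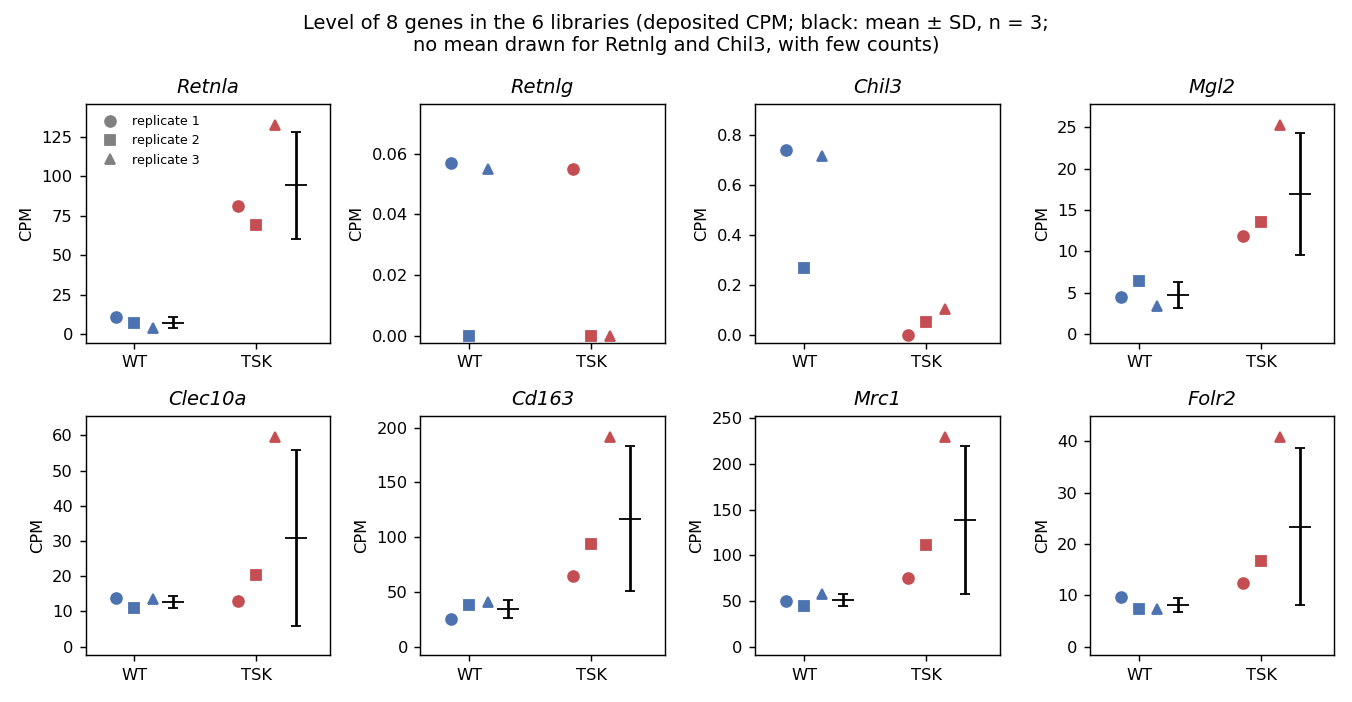
Deposited CPM (vertical axis) of 8 genes in each of the 3 WT (blue) and 3 TSK (red) libraries, with the marker shape giving the replicate and black bars the mean ± SD (n = 3; none drawn for Retnlg and Chil3). Retnla sits at 3.79 to 10.6 CPM in WT and 69.0 to 133 CPM in TSK, TSK 3 is the highest library for Retnla and the 5 receptors, and Chil3 is higher in WT.

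The stretch upstream of Retnla is shown because it holds the letters of the STAT6 site for which the gene is known, and that of Retnlg because the neighbouring copy holds nearly the same letters but was barely read in this skin. Sequences are from RefSeq (GRCm38.p6), which gave windows from 250 bases before to 50 bases after the RefSeq start for 7 of the 8 genes. They were searched on both strands for TTCNNNNGAA, the STAT6 spacing, TTCNNNGAA, the spacing of other STAT proteins, and TTGCNNAA, a loose form of the C/EBP site. The stretch for Retnla is chr16:48842359-48842550 (192 bases) and that for Retnlg chr16:48872358-48872607 (250 bases), both on the plus strand, with matches in capitals.
Retnla: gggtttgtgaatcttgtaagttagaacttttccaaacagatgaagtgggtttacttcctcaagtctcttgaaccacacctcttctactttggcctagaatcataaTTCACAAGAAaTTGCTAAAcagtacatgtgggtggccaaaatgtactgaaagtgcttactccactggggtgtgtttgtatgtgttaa
Retnlg: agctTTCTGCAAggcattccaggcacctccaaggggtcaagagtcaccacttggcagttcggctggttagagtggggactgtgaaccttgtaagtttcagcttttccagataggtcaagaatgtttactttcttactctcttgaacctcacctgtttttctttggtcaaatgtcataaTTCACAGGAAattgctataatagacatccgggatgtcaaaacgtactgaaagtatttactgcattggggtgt

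Distances are counted here from the gene starts of the deposited table to the upstream end of a match. The RefSeq start that sets the window lies 58 bases downstream of that start in Retnla and 13 bases upstream of it in Retnlg. In Retnla the STAT6 match began 87 bases before the start and the C/EBP match 76 bases before it. In Retnlg a STAT6 match began 85 bases before the start and a C/EBP match 259 bases before it. The cores around the STAT6 matches, each of 24 bases, were compared position by position.
Retnla core (chr16:48842459-48842482): cataaTTCACAAGAAaTTGCTAAA
Retnlg core (chr16:48872531-48872554): cataaTTCACAGGAAattgctata
The cores shared 22 of 24 bases, and the differences from Retnla to Retnlg, counted from 1 at the left end, were A12G and A23T. The first lies between the outer letters of the STAT6 match and leaves it in place, and the other removes the C/EBP match. Among the other members with a window, Chil3 held TTCTTAGAA, a match of the shorter STAT spacing 172 bases before its start, and Cd163, Folr2, Mgl2 and Mrc1 held none of the 3 patterns. Of all 32851 windows, 6.95% held the STAT6 spacing, 8.3% the shorter one and 10.8% the C/EBP letters.

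Of the relatives of Retnla, Retnlg and Retnlb were at or near 0, while Retn was uneven among the TSK libraries. Retnlg, which encodes RELMγ, known from myeloid cells of bone marrow and blood, lies on the same chromosome, 28159 bases away. It had 1, 0 and 1 counts in WT and 1, 0 and 0 in TSK, at or under 3 counts per library (0.156 to 0.171 CPM), so no fold is given and a difference was not detectable at this depth. Retnlb, the RELMβ gene of the gut, lies 23658 bases away and had 0 counts in all 6 libraries. Retn, which encodes the adipocyte hormone resistin, had 3.59, 3.73 and 2.19 CPM in WT and 10.5, 70.6 and 4.48 CPM in TSK. All TSK libraries were above all WT libraries in CPM but not on the TMM scale, and the log2 fold change was 2.88 (SE 0.91, adjusted p = 0.126 in the edgeR fit). Retn was highest in TSK 2, the library in which Retnla was lowest among TSK.

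Chil3, the other secreted marker, was not higher in TSK skin. Chil3 had 13, 5 and 13 counts in WT and 0, 1 and 2 counts in TSK, with every TSK library below every WT library. Summed and scaled to the library totals, WT held 10.7 times the TSK count (95% Clopper-Pearson interval 3.33 to 54.5, counting error only). Chil3 did not pass the filter on low counts and was not tested; in the fit without that filter its adjusted p was 0.0204 (edgeR), and over all settings that fitted it 0.0204 to 0.110. It shared 26.9% of its 50-base stretches with Chil4 and Gm6522, which had 0 counts in every library.

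The 5 receptors had higher means in TSK than in WT, by 2.42-fold to 3.56-fold in CPM, and none passed an adjusted p of 0.05 with edgeR. Mgl2 (CD301b), a lectin for galactose-type sugars on macrophages and dermal dendritic cells, had 4.45, 6.45 and 3.35 CPM in WT and 11.9, 13.6 and 25.3 CPM in TSK. Every TSK library was above every WT library, and the log2 fold change was 1.53 (SE 0.35, adjusted p = 0.0539 by edgeR's quasi-likelihood test, adjusted by Benjamini-Hochberg over 19971 genes). Clec10a (CD301a), the neighbouring copy of Mgl2, had 13.9, 10.8 and 13.5 CPM in WT and 12.8, 20.3 and 59.5 CPM in TSK. The groups overlapped for Clec10a, with TSK 1 among the WT values, and the log2 fold change was 0.99 (SE 0.47, adjusted p = 0.286 in the edgeR fit). Mgl2 shared 13.1% and Clec10a 9.02% of their 50-base stretches with other genes, each other included, so reads could be split between them.

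Cd163, the scavenger receptor for haemoglobin bound to haptoglobin, had 25.2, 37.7 and 40.2 CPM in WT and 64.8, 94.0 and 191 CPM in TSK, with no overlap. Its log2 fold change was 1.44 (SE 0.38, adjusted p = 0.082 in the edgeR fit). Mrc1, the mannose receptor CD206, had 49.8, 44.5 and 57.7 CPM in WT and 75.0, 111 and 229.6 CPM in TSK, again with no overlap. The log2 fold change of Mrc1 was 1.16 (SE 0.35, adjusted p = 0.111 in the edgeR fit). Folr2, the folate receptor β of resident macrophages, had 9.57, 7.40 and 7.26 CPM in WT and 12.4, 16.8 and 40.8 CPM in TSK, and was 1.25 on the log2 scale (SE 0.38, adjusted p = 0.117 in the edgeR fit). Folr2 overlaps Gm10602 on the opposite strand (39 to 93 counts); the libraries were stranded, but whether strand was used in counting is not given in the sources used here.

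The receptors were uneven across TSK mice. TSK 3 was the highest library for all 5, and it stood above TSK 1 by 2.14-fold for Mgl2, 2.95-fold for Cd163, 3.06-fold for Mrc1, 3.30-fold for Folr2 and 4.65-fold for Clec10a, against 1.64-fold for Retnla. Without TSK 3 the log2 fold changes were 1.14 for Mgl2, 0.91 for Cd163, 0.61 for Mrc1, 0.59 for Folr2 and 0.12 for Clec10a, and 3.13 for Retnla. In WT, Retnla was lowest in WT 3, as Mgl2 and Folr2 were, while Mrc1 and Cd163 were highest there and Clec10a was lowest in WT 2.

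**Figure D2:**
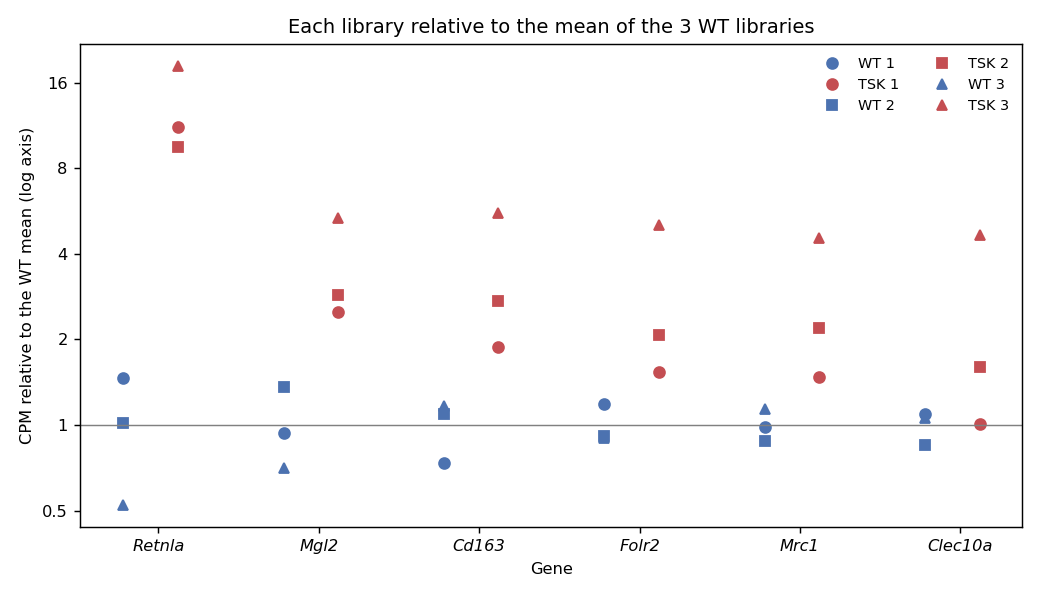
CPM of 6 tested genes in each library relative to the mean of the 3 WT libraries (vertical log axis; blue WT, red TSK, marker shape for the replicate). The TSK libraries of Retnla lie at 9.52 to 18.3, those of Mgl2, Cd163, Folr2 and Mrc1 at 1.48 to 5.57, and those of Clec10a at 1.00 to 4.67.

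Of the 8 genes 6 passed the filter on low counts, all but Retnlg and Chil3. Apart from Retnla, which is given without a test, 0 of the 5 passed an adjusted p of 0.05 with edgeR, where 3.39% of all tested genes did (2.71% higher and 0.681% lower in TSK). Without TSK 1 there were 2, Cd163 and Mrc1, and without WT 2 there was 1, Mgl2. At an unadjusted p of 0.05 there were 4 of 5, all higher, where 12.1% of all tested genes were higher and 7.9% lower. At the thresholds of the study, an adjusted p of 0.01 and a fold of 2.5, 0 of 5 passed with edgeR, against 0.29% of all genes. Since the list was chosen with this contrast known, nothing is read from these counts. DESeq2, the tool of the study, passed 4 of the 5 as higher (5.5% of its tested genes were): Mgl2 (adjusted p = 0.000543), Cd163 (adjusted p = 0.00162), Mrc1 (adjusted p = 0.00979) and Folr2 (adjusted p = 0.0147, all by DESeq2). Over all settings the highest adjusted p of these receptors was 0.185 for Mgl2, 0.193 for Cd163, 0.248 for Mrc1 and 0.303 for Folr2. All 3 TSK libraries lay above all 3 WT libraries for Retnla, Mgl2, Cd163, Mrc1 and Folr2, in CPM (29.1% of tested genes) and on the TMM scale (14.1%).

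Compared per kilobase of exon, Retnla had the highest mean level of the members in both groups. In WT the level of Retnla was 12.1 ± 5.68 CPM per kb (SD, n = 3), followed by Mrc1 at 7.95 ± 1.05, Cd163 at 6.30 ± 1.47, Folr2 at 5.22 ± 0.838 and Clec10a at 4.40 ± 0.585 CPM per kb. Each of these overlapped the next in its libraries. Mgl2 followed at 2.27 ± 0.751 CPM per kb, with no library as high as the lowest of Clec10a. In TSK Retnla stood at 157 ± 56.5 CPM per kb, above Mrc1 at 21.7 ± 12.7 CPM per kb in every library, and Mgl2 was again the lowest of the 6 at 8.09 ± 3.50 CPM per kb.

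To ask whether Retnla was higher along with the other genes or apart from them, it was set against them within each library, where the scaling cancels. For every 100 counts of Mrc1 there were 21.3, 16.5 and 6.57 counts of Retnla in WT and 108, 62.2 and 57.8 in TSK, a 5.13-fold difference of the means with no overlap. For every 100 counts of Cd163 there were 42.0, 19.5 and 9.43 in WT and 125, 73.4 and 69.3 in TSK. Against Mgl2 the means differed 3.68-fold, against Folr2 5.30-fold and against Clec10a 6.94-fold, and the groups overlapped for none of these. Relative to the WT mean, Retnla stood higher than each of the 5 receptors in every TSK library. Retnla was listed because it was high in TSK, so a lack of overlap in its ratios is largely set by that choice. These comparisons describe how far it stood from the other genes and are no test.

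Set against general macrophage genes, Retnla again differed between the groups without overlap, and the receptors overlapped. For Retnla this too is a description, since it was chosen for its rise, and nothing is read from the contrast with the receptors. For every 100 counts of Csf1r, the receptor for macrophage growth factor, there were 22.3, 21.4 and 7.81 counts of Retnla in WT and 116, 71.6 and 80.3 in TSK. For Mrc1 the same ratio was 118 ± 12.4 in WT and 121 ± 16.4 in TSK (SD, n = 3), with overlap. The ratios of all 5 receptors to Csf1r and to C1qa, a complement gene of macrophages, overlapped between the groups, and the means differed by 0.852-fold to 1.46-fold. These ratios depend on the partner. Csf1r had the highest log2 fold change of the 16 core macrophage genes (1.06), and C1qa stood at 0.98, against a list median of 0.63. With all 16 as reference the receptors differed by 0.78 on the log2 scale (1.71-fold), also with overlap.

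**Figure D3:**
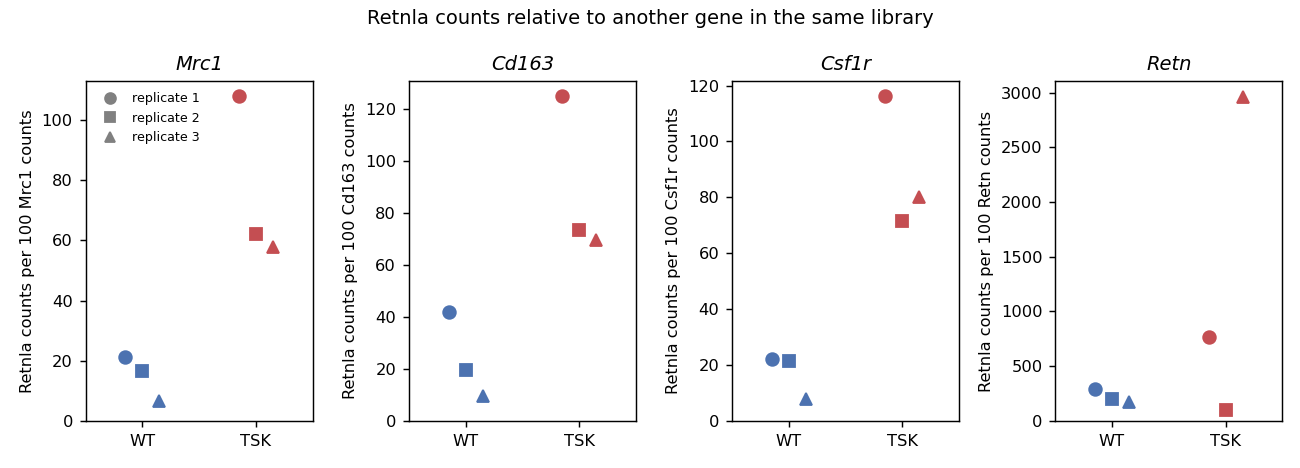
Counts of Retnla per 100 counts of Mrc1, Cd163, Csf1r or Retn in the same library (vertical axes, linear; blue WT, red TSK, marker shape for the replicate). The groups do not overlap for Mrc1, Cd163 and Csf1r, and they overlap for Retn, where TSK 2 lies at 97.7, below all WT libraries.

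Averaged on the log2 scale, Retnla minus the mean of the 5 receptors was -0.49, -1.06 and -1.96 in WT and 1.71, 1.00 and 0.78 in TSK. The difference of 2.34 is 5.05-fold, and it was 1.94 to 2.67 when each library was left out in turn. The mean of the 5 receptors minus the mean of 16 core macrophage genes was -0.56, 0.74 and -0.13 in WT and 0.63, 0.77 and 0.98 in TSK. This difference of 0.78 had an exact permutation p of 0.2 (two-sided), where 3 against 3 libraries cannot go below 0.1. It was 0.49 without WT 1 and 1.14 without WT 2, where the groups did not overlap (exact permutation p = 0.1, the smallest that 2 against 3 libraries allow). Without TSK 1 they did not overlap either, at 0.86 (exact permutation p = 0.2).

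The lists of macrophage genes had different medians, a difference that was not tested. All lists were chosen with this contrast known, so nothing is read from their counts. Of all tested genes, 2.71% were higher with edgeR, 12.1% at an unadjusted p of 0.05 and 5.5% with DESeq2. With limma-trend 9.37% were called in either direction. In the core list (Csf1r, C1qa and others) the median log2 fold change was 0.63 (0.27 without TSK 3 to 0.86 without WT 1), against -0.03 over all tested genes, and 0 of 16 passed with edgeR (1 without WT 1, Mertk, and 1 without TSK 1, Csf1r; 9 at an unadjusted p of 0.05, 1 of them lower in TSK, and 3 higher with DESeq2 and 3 with limma-trend). Csf1r was 1.06 and Lyz2, the lysozyme gene of myeloid cells, 0.84, while Adgre1 (F4/80) was 0.23 and Cd68 0.04 on the log2 scale. In the list of other resident macrophage genes the median was 1.29 (0.77 without TSK 3 to 1.69 without WT 1), and 5 of 14 passed with edgeR, all higher (10 at an unadjusted p of 0.05, 9 with DESeq2 and 8 with limma-trend, all higher). The count was 0 without WT 3, a fit that called 0.29% of all genes, and 3 to 7 without any other library. The genes were Ltc4s, the leukotriene C4 synthase, at 2.08 (SE 0.27), Fcna, which encodes ficolin A, at 2.55 (SE 0.41), Vsig4, a complement receptor, at 3.68 (SE 0.62), Lyve1, a hyaluronan receptor of perivascular macrophages and lymphatic vessels, at 2.22 (SE 0.45), and F13a1, the factor XIII A subunit, at 1.61 (SE 0.31). Fcna had 3.02, 3.51 and 3.35 CPM in WT and 12.5, 18.4 and 40.5 in TSK, and Lyve1 7.97, 9.10 and 8.96 in WT and 23.6, 35.1 and 91.1 in TSK, with TSK 3 highest as for the receptors. Stab1 stood at 1.16 (SE 0.30, adjusted p = 0.0718 in the edgeR fit and 0.00172 with DESeq2) and Maf at -0.25.

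Against this list the difference of Retnla was 2.21 on the log2 scale. No gene of it other than Vsig4, which had at most 0.228 CPM in WT, had a larger log2 fold change than Retnla.

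Of other genes of alternative activation, a list apart from the members, 6 of 9 had log2 fold changes above 0 and 3 below. Over all tested genes the median was -0.03. In WT means Tgm2 (290 CPM), Cdh1 (120 CPM) and Slc7a2 (71.2 CPM) exceeded Csf1r (43.4 CPM). Which cells of the bulk skin gave these reads was not tested, so the signs are not read as those of macrophages. The median was 0.35 (0.23 without WT 2 to 0.62 without WT 1), with 1 of 9 higher and 1 lower with edgeR, and with neither of them past the threshold without WT 3, TSK 2 or TSK 3. At an unadjusted p of 0.05 there were 3 higher and 1 lower, and DESeq2 passed 2 as higher and 1 as lower. Of all tested genes, edgeR passed 2.71% as higher and 0.681% as lower. At the unadjusted p 12.1% were higher and 7.9% lower, and DESeq2 passed 5.5% as higher. Egr2 and Irf4, transcription factor genes, stood at 0.75 (SE 0.31) and 0.95 (SE 0.32) and did not pass with edgeR. For both, all TSK lay above all WT libraries, as for 29.1% of tested genes in CPM and 14.1% on the TMM scale. On the TMM scale 3 genes of this list did so, and 1 had all TSK libraries below. Ccl24, the chemokine eotaxin-2, had 0.342, 0.810 and 0.220 CPM in WT and 2.46, 2.76 and 4.51 in TSK and rose by 2.51 (SE 0.48, adjusted p = 0.0299 in the edgeR fit). Tgm2, the transglutaminase 2 gene, had 309, 272 and 290 CPM in WT and 212, 156 and 199 in TSK and changed by -0.89 (SE 0.17, adjusted p = 0.0291 in the edgeR fit). The ligands and receptors of the pathway did not pass. Of 10 tested genes of type 2 cytokines and receptors 0 passed with edgeR or DESeq2 (1 higher at an unadjusted p of 0.05), with a median of 0.14 (0.04 to 0.32 with 1 library left out). Il13 had 0 counts in all libraries, and Il4, Il5, Il25 and Il13ra2 were too low to test. Il4ra, the shared receptor chain, was 0.44 (SE 0.21), Il33, the alarmin of keratinocytes and fibroblasts, 0.20 (SE 0.24), and Stat6 0.10 (SE 0.13). For Stat6 the values were 66.7, 44.9 and 49.4 CPM in WT and 62.7, 65.4 and 79.9 in TSK, with overlap.

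Genes of other skin cells also differed, and their part in the level of Retnla was not tested. Genes of classical activation (median 0.15 over 10 genes), monocytes (-0.52 over 8), neutrophils (-0.48 over 4), dendritic cells (0.37 over 10) and relatives of the members (0.48 over 7) had 0 genes that passed with edgeR. At an unadjusted p of 0.05 these lists held 1, 2, 1, 3 and 3 genes, and DESeq2 passed 1, 1, 1, 3 and 1. In both counts the genes of classical activation, monocytes and neutrophils were lower in TSK, and those of dendritic cells and the relatives higher. Of all tested genes, 12.1% were higher and 7.9% lower at that unadjusted p. With 1 library left out, edgeR passed H2-Aa and Cd74 of the dendritic cell list without WT 1, S100a8 of the neutrophil list in every such fit but that without WT 3, and Il1b of classical activation without WT 3. S100a8 and Il1b were too low to test with all 6 libraries, and the monocyte genes and the relatives gave 0 in each of these fits. Keratinocyte genes had a median of 0.05, with Lor, a cornified envelope gene, higher (1.78, a call lost without WT 3) among 8 (2 at an unadjusted p of 0.05, 1 with DESeq2), and muscle genes -0.74 with 0 of 9 (6 at an unadjusted p of 0.05, 5 of them lower, and 7 with DESeq2; 6 passed with edgeR without WT 1 and 0 without any other library). Of eosinophil genes, Epx and Ear1 had 0 counts in every library, and Ear2, a ribonuclease also made by some macrophages, was higher at 2.04 (SE 0.41, adjusted p = 0.0357 in the edgeR fit), a call kept without WT 1 and lost without any other library.

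Adipocyte genes had a median of 2.36, and 3 of 13 passed with edgeR (Lep, Cfd and Plin1; 0 without WT 2 or WT 3, 8 without TSK 3). At an unadjusted p of 0.05 there were 11 of 13, and DESeq2 passed 9 and limma-trend 11, all higher. Their summed level was 528 to 627 CPM in WT and 964 to 4642 CPM in TSK, with the highest value in TSK 2. The ratio of Retnla to Adipoq overlapped between the groups and was 169, 27.9 and 398 counts per 100 in TSK 1, 2 and 3. Fibroblast genes had a median of 1.08, and 5 of 14 passed with edgeR (Dpp4, Pi16, Cd34, Dpt and Thy1; 1 without WT 3, 2 without TSK 2). At an unadjusted p of 0.05 there were 12 of 14, and DESeq2 passed 11 and limma-trend 13, all higher. They took 0.6575% to 0.986% of the counts in WT and 2.10% to 4.83% in TSK. Beside the counts of adipocyte and fibroblast genes, 2.71% of all tested genes were higher with edgeR. At an unadjusted p of 0.05 it was 12.1%, with DESeq2 5.5% and with limma-trend 9.37% in either direction. Other genes that were among the 2 most abundant tested genes of a list did not pass with edgeR. With DESeq2 Col1a1 (adjusted p = 6.86e-06), Col3a1 (0.00127), Mrc2 (0.00553), Cd74 (0.00709) and H2-Ab1 (0.0442) passed as higher and Myh4 (0.000122) and Ttn (0.0201) as lower in TSK. The edgeR log2 fold changes were 1.84 for Col1a1 and 1.24 for Col3a1 (fibrillar collagens), 2.33 for Fabp4 and 0.34 for Plin4 (adipocyte lipid handling), 0.93 for Cd74 and 0.75 for H2-Ab1 (antigen presentation), 0.46 for Itgam and -0.24 for Ccr2 (monocytes), 0.23 for Mmp9 and -0.28 for Cxcr2 (neutrophils). They were -0.60 for Krt5 and 0.32 for Dsp (keratinocytes), -0.74 for Ttn and -1.09 for Myh4 (muscle), 0.21 for Irf5 and 0.52 for Cxcl9 (classical activation), 1.08 for Mrc2 and -0.03 for Chit1 (relatives of the members), 0.37 for Il5ra (eosinophils), 0.15 for Cdh1 (alternative activation) and -0.22 for Jak1 (cytokine signalling).

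Pi16, a gene of fibroblasts of the fascia and adventitia, was 3.14 (SE 0.43) on the log2 scale. For every 100 counts of Pi16 there were 77.3, 34.0 and 28.9 counts of Retnla in WT and 84.3, 47.4 and 45.2 in TSK, which overlapped.

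**Figure D4:**
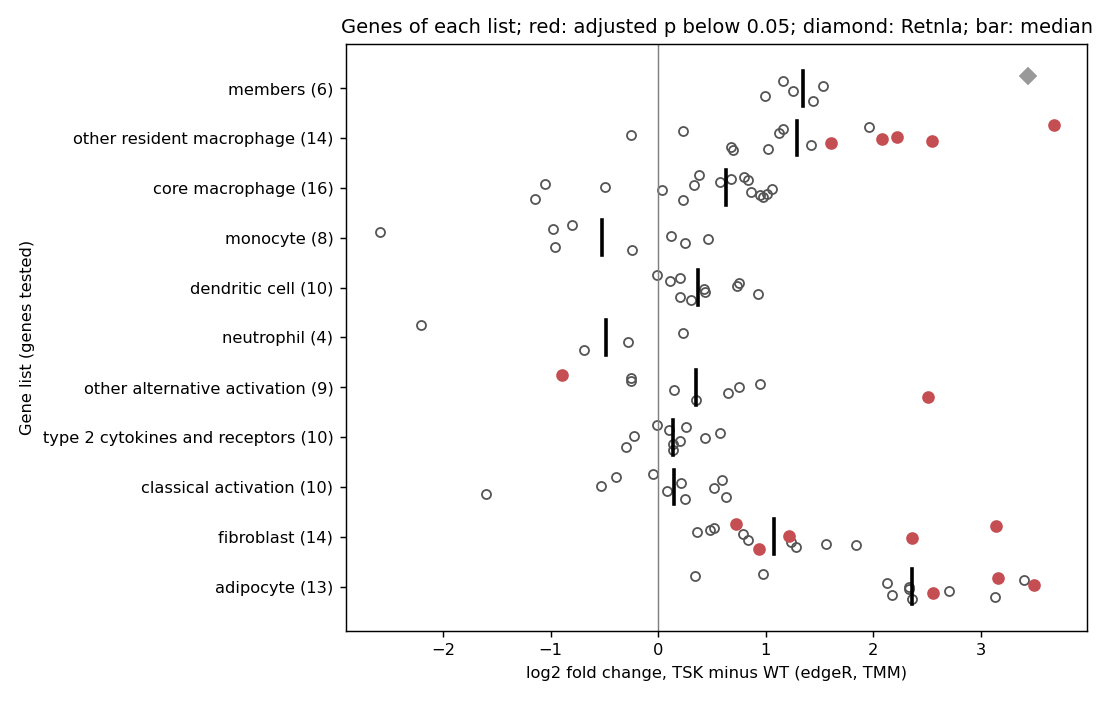
Log2 fold changes (TSK minus WT, edgeR, TMM; horizontal axis) of the tested genes of 11 lists (rows), with red points for an adjusted p below 0.05, a grey diamond for Retnla (no test given) and a black bar at the median. Retnla stands apart from the other members at 3.44, and the medians run from -0.52 for monocyte genes to 2.36 for adipocyte genes, with 1.29 for other resident macrophage genes.

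The genes with the pattern most like that of Retnla were on none of the lists. Likeness was measured over the 6 libraries as the root mean square difference of centred TMM log2 CPM, among 12016 genes with a mean CPM of at least 5. The measure includes the size of the difference between the groups, for which Retnla was chosen, so the ranks largely follow fold size. The 6 closest genes had log2 fold changes of 2.82 to 4.09, and the 5 receptors 0.99 to 1.53. The closest were Islr2 (0.40), a leucine-rich repeat membrane protein, Atp12a (0.464), a proton and potassium pump subunit, Dact2 (0.474), a Dishevelled-binding protein, Wnt10b (0.493) and Wnt2 (0.498), secreted Wnt ligands, and Ildr2 (0.536), an immunoglobulin-like receptor. Islr2 had 2.52, 3.08 and 2.10 CPM in WT and 24.02, 31.2 and 45.1 in TSK. Among the members Mgl2 came nearest at rank 87 (1.05), followed by Cd163 at rank 220, Folr2 at 268, Mrc1 at 401 and Clec10a at 1008. Of the resident list Fcna came at rank 23 and Ltc4s at 30, and of the fibroblast list Pi16 at rank 9. The order depended on the measure, since 0 of the 6 closest genes were among the 6 closest by Pearson's r.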

How the data were processed

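Skin RNA of 6 mice, 3 per genotype, was measured. Per the labels and methods, the authors depleted ribosomal RNA, made stranded libraries, sequenced single-end reads of 50 bases, aligned them with STAR to mm10 and quantified genes in Partek Flow (version 11.0, from the submitters' processing notes). Deposited values were estimated counts (43.3% to 45.4% of non-zero values whole within 0.001, rounded here; whole counts had been assumed when the tests were planned) and CPM, which the authors scaled from those counts to 1000000 per library. Of the columns of values, 0 belonged to no labelled mouse. Totals of 17561453 to 19219814 limit low genes, and intervals cover counting error only.

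Groups came from the sample titles. TSK was compared with WT by edgeR 4.0.16 (R 4.3.3), glmQLFit and glmQLFTest on TMM-scaled counts of the 19971 genes kept by filterByExpr, adjusted by Benjamini-Hochberg. The SE was the log2 fold change over the root of F. The test was also run on simulated counts with known changes, and no outcome of that run is given or used here. Log2 levels used a prior count of 2. Exon lengths and transcripts came from GENCODE M21 (GRCm38), and promoter windows from RefSeq. Alternatives were DESeq2 1.42.0, limma 3.58.1 (voom, and trend on log2(CPM + 1)), other normalizations and filters, a term for the replicate number, and fits without 1 library. Retnla set against the resident list, Mrc1, the fibroblast list, or the receptors without 1 library was added after seeing the data.

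The members and the 14 other gene lists were chosen with earlier results of these data known. Of the members 1 is not reported here. Counts of called members leave out Retnla, although the plan had counted it. The text names the other members, Fbn1, from each list the 2 tested genes with the highest mean CPM and up to 3 called genes with the lowest adjusted p, and the 6 genes most like Retnla. Adgre1, Cd68, C1qa, Adipoq, Lyve1, F13a1, Dpt, Thy1, Il4ra, Il33, Egr2, Irf4, H2-Aa, Mertk, S100a8, Il1b, Retn, Retnlb, the type 2 cytokines and the eosinophil genes at 0 are named outside that rule, chosen with their values seen. Same-numbered mice did not deviate together (correlations 0.0112, 0.167 and -0.0938), so the numbers were not taken as pairs. No batch is given in the labels, and the labels do not say more of the replicates than that they are separate mice. The study's single-cell data were not used here.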

Additional observations from a re-analysis of the deposited data

How the results depend on the processing

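The direction of Retnla, Mgl2, Clec10a, Cd163, Mrc1 and Folr2 was the same in all 14 other settings, and the level of Retnla relative to other genes was higher in TSK than in WT by 2.34 on the log2 scale with the receptors as reference (1.94 to 2.67 with 1 library left out), 3.11 with core macrophage genes, 2.21 with other resident macrophage genes, 2.44 with Mrc1 and 2.25 with fibroblast genes. Members other than Retnla called at an adjusted p below 0.05 numbered 0 with edgeR (3.39% of all tested genes were called) and 0 with limma-voom (2.73%), 1 with the size factors of DESeq2 (3.58%), 4 with DESeq2 (7.48%), 4 with library size only (8.9%), 3 with limma-trend (9.37%) and 5 without the low-count filter (3.98%), where Chil3 was lower in TSK. Leaving out 1 library gave 0 to 2 (2 without TSK 1, Cd163 and Mrc1, where 2.56% of genes were called, and 1 without WT 2, Mgl2, where 1.39% were). At the thresholds of the study the count was 0 with edgeR (0.29% of all genes), 2 with DESeq2 (1.82%), 1 with limma-trend (1.42%), 1 without the filter (1.02%) and 0 in each fit without 1 library. Why the tools and normalizations differed was not tested; the fits without a library had fewer samples. The replicate block, although the replicate numbers share only a number, gave 2 members, Cd163 and Mrc1, and 794 genes in all against 678.

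Library size in place of TMM moved the median of all genes from -0.03 to 0.25 and the calls of all genes from 678 (542 higher) to 1778 (1685 higher). DESeq2 called 1544 genes, limma-trend 1871 and the fit without the filter 1387. Without WT 3 there were 60, without WT 2 287, without TSK 2 381, without TSK 3 387 and without WT 1 1260. Medians of the type 2 list moved from 0.14 to 0.39 (library size) and 0.37 (limma-trend), and 0.04 to 0.32 with 1 library left out. Those of other alternative activation moved from 0.35 to 0.61 (library size) and ranged from 0.23 to 0.62 with 1 library left out. Those of classical activation moved from 0.15 to 0.41 (library size) and 0.26 (CPM of at least 1), and ranged from -0.08 to 0.24 with 1 library left out, being -0.05 without TSK 1.

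Some values near 0 changed sign. With library size and limma-trend these were Chit1 (0.23 and 0.18), Maf (0.03 and 0.02) and Jak1 (0.06 and 0.06), and with limma-trend Ccr2 (0.25), which was 0.01 with the replicate block. With 1 library left out, Chit1 ranged from -0.28 to 0.23 (0.10 without WT 1), Cdh1 from -0.06 to 0.38, Irf5 from -0.08 to 0.35, Cxcl9 from -0.08 to 0.84, Itgam from -0.04 to 0.81, Ccr2 from -0.64 to 0.63, Mmp9 from -0.03 to 0.77 and Plin4 from -0.13 to 0.56. The median of monocyte genes ranged from -0.85 to 0.08, and that of keratinocyte genes was -0.20 without TSK 1 and -0.05 without WT 2.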

Other observations

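Among genes too low to test with edgeR, Chil3 was not the only one below WT in all TSK libraries. S100a8, a calcium-binding protein gene of neutrophils and monocytes, had 14, 10 and 17 counts in WT and 0, 1 and 1 in TSK (adjusted p = 0.00353, DESeq2). Il1b, the interleukin 1β gene of classical activation, had 21, 41 and 9 counts in WT and 0, 1 and 1 in TSK (adjusted p = 0.000381, DESeq2). Both were singled out after their values were seen. Of monocyte genes that were tested, Ms4a4c had 7.88, 1.22 and 2.46 CPM in WT and 0.546, 0.365 and 1.25 in TSK, with overlap in CPM and a log2 fold change of -2.59 (SE 0.66, adjusted p = 0.0721 in the edgeR fit), and it too was chosen after its values were seen.

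Within the core macrophage list, genes stood in both directions. Fcgr1, Aif1 and Ctss had log2 fold changes of -1.05 (SE 0.58), -1.15 (SE 0.50) and -0.49 (SE 0.39), and none passed with edgeR. These 3 were chosen after their values were seen. All 16 genes of the list were lowest in WT 2 among WT in CPM (15 of 16 on the TMM scale), those higher in TSK included, and Ctss was 16.2 CPM there against 61.2 and 43.1 CPM in WT 1 and WT 3. Retnla was lowest in WT 3.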
